A study of Mus musculus with 4 samples.

Results

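Socs2 was followed as 1 of the 3624 genes counted in single progenitor cells of mouse fetal liver at E14.5. It was selected on its measured level, chosen by the size of the difference in counts between wild-type and enhancer-deleted libraries, so that difference is described here without a test. A cell is called Socs2-detected where it held at least 1 Socs2 UMI (unique molecular identifier, 1 counted transcript). Such cells numbered 67 of 3042 in wild-type library F and 51 of 1938 in wild-type library I. They numbered 255 of 2235 in enhancer-deleted library A and 318 of 2745 in enhancer-deleted library B.

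All embryos were of the C57Bl/6J strain, and cells were sorted as Lin-Sca1-Kit+CD34+ and profiled on the 10x Genomics Chromium platform. Libraries F and I (WT) came from wild-type embryos. Libraries A and B (MT) came from embryos of genotype Gata2-77-/-, which lack a distal enhancer of that gene. Each genotype thus had n = 2 libraries. Where a pair of values is given, the WT pair is in the order F, I and the MT pair in the order A, B. The letters are those of the deposited files and are not tied to sample numbers. In comparisons of the genotypes, p-values measure the spread between these libraries. In comparisons of cell classes or of Socs2-detected with other cells, they rest on sums within the same libraries. Those p-values do not measure the spread between embryos.

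Socs2 encodes a suppressor of cytokine signalling. Proteins of this family bind phosphorylated cytokine receptors through an SH2 domain and, through a SOCS box that joins an elongin and cullin ubiquitin ligase, lower the signal that reaches JAK kinases and STAT factors. Socs2 is itself induced by STAT5 downstream of growth hormone and of hematopoietic cytokines, and it is known as a gene of hematopoietic stem cells. Gata2 encodes a zinc finger transcription factor of stem and progenitor cells. In GENCODE release M21 (mm10 assembly), Socs2 (ENSMUSG00000020027.18) is a protein-coding gene on the minus strand of chromosome 10, from 95385362 to 95417180.

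Levels are given as CPM, the UMIs of a gene scaled to a fixed total of UMIs of the 3624-gene panel. Median UMIs per cell were 12826.5 and 17437.5 for the WT pair and 7492 and 7087 for the MT pair, so the libraries with more Socs2 were the shallower ones. Gata2 stood at 26.3 and 23.2 CPM in the WT pair and at 7.48 and 6.73 in the MT pair (edgeR adjusted p = 0.0079, and 0.055 without library A). The sort markers Kit (39.6 to 45.2 CPM) and Cd34 (186 to 333 CPM) were present in every library. Xist held 1 UMI in F and 0 in A, against 16675 in I and 8171 in B, so each genotype had 1 library with and 1 almost or wholly without it. No pair of cells held identical counts. Barcodes were not analysed here, so cells shared between libraries could not be counted in that way.

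Socs2 stood at 1.92 CPM in library F (77 UMIs) and 1.56 in I (53 UMIs), against 23.1 in A (389 UMIs) and 24.0 in B (478 UMIs). The means were 1.74 ± 0.252 and 23.5 ± 0.631 CPM (SD, n = 2 each). Both enhancer-deleted libraries lay far above both wild-type libraries, and the 2 libraries of a genotype lay close together. The fitted log2 fold change was 3.70, the largest rise among 3622 tested genes, and the next gene, Cox4i2, stood at 1.24. Of these genes, 8.86% were called between genotypes (edgeR quasi-likelihood, adjusted p under 0.05), 2.76% up and 6.1% down. With equal cells of each class, 50 drawn per library from each of 6 classes, 5 genes were called. This setting kept far fewer cells and left out every other class. The parts of cell number and of class composition in the calls lost there were not tested. Nothing is read from the place of Socs2 among the genes called, since the genotype contrast chose it. In such sums over cells, fewer cells of a type and less RNA per cell cannot be told apart.

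To compare detection at equal depth, each cell was thinned to 4346 UMIs and shallower cells were left out, 140 WT and 855 MT cells. A Socs2 UMI was then found in 30 of 2931 cells of F (1.02%, exact 95% interval 0.692 to 1.46) and 19 of 1909 cells of I (0.995%, 0.6003 to 1.55). It was found in 135 of 1837 cells of A (7.35%, 6.20 to 8.64) and 191 of 2288 cells of B (8.35%, 7.25 to 9.56). Without thinning the shares were 2.20% and 2.63% for the WT pair and 11.4% and 11.6% for the MT pair. These intervals, and those on levels below, cover counting error only.

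Cells were clustered without Socs2, and clusters were named only where marker genes led them. Clusters 1, 2 and 8 were HSPC-like, that is, led by markers of hematopoietic stem and multipotent progenitor cells more than by those of other lists. Mycn was among the leading genes of each, Hlf of clusters 2 and 8, and Sox4 of cluster 2. By the naming rule 9, 11 and 10 of 13 measured markers passed in clusters 1, 2 and 8. Kit passed in cluster 2 only, and Cd34 and Gata2 in none of these clusters. The HSPC-like clusters held 619 cells of A and 823 of B, and 542 of F and 474 of I. In the enhancer-deleted libraries these cells carried most of the transcript. They were 27.7% of the cells of A and 83.5% of its Socs2 UMIs, and 29.98% of the cells of B and 87.9% of its Socs2 UMIs.

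**Figure D1:**
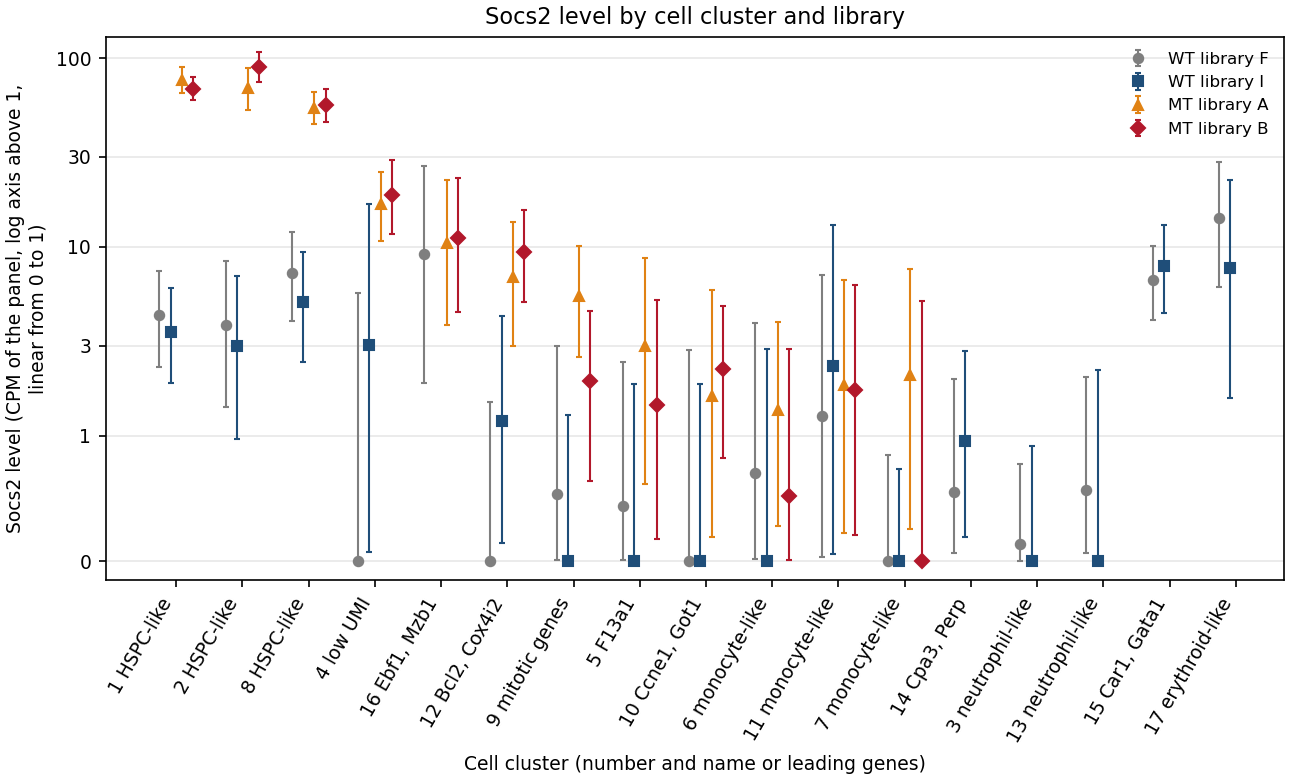
Socs2 level in CPM (vertical axis, logarithmic above 1 and linear from 0 to 1) in each cell cluster with at least 30 cells of a library. Points are single libraries (WT F and I, MT A and B), bars are exact 95% Poisson intervals, and the 6 MT points of HSPC-like clusters 1, 2 and 8 lie between 54.8 and 90.3 CPM, above every other point.

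Within the HSPC-like class, cluster 2 stood at 69.2 CPM in A and 90.3 in B, and cluster 1 at 76.7 and 69.1. These clusters overlapped. Cluster 8 stood at 54.8 and 56.5, below both of them in either library, a difference that was not tested. Cluster 8 was also the richest of the 3 in transcripts of mitosis, with 4478 and 4748 summed CPM of 18 G2/M genes in A and B, against 2387 to 3128 in clusters 1 and 2. The part of the cell cycle in this order was not tested.

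Among the other classes with at least 50 cells in both A and B, cluster 4 stood highest, at 16.8 CPM in A and 18.9 in B. Cluster 4 had no marker list of its own and few UMIs per cell, a median of 3959.5 in A and 3505 in B, and the part of depth in its level was not tested. Its leading genes Rpgrip1 and Slc39a1 also led low-UMI clusters of a finer clustering (Leiden resolution 2.0). Those of 297 and 130 cells were named HSPC-like, with 7 and 9 of 13 markers, and that of 566 cells stayed unnamed. The cells they share with cluster 4 were not counted. Cluster 16, led by Ebf1 and Mzb1, followed at 10.5 and 11.2 CPM, and cluster 12, led by Bcl2 and Cox4i2, at 6.92 and 9.39. Ebf1 is a B lymphoid regulator, but cluster 16 was left unnamed. In it 1 of 2 B lymphoid, 4 of 13 HSPC, 2 of 5 dendritic and 2 of 16 monocyte and macrophage markers passed. Intervals of clusters 4, 16 and 12 overlapped, so their order is not set. Cluster 9, led by the mitotic genes Kpna2 and Aurka, stood at 5.47 and 1.958 CPM. Cluster 5, led by F13a1, stood at 2.99 and 1.45. Cluster 10, led by the cyclin gene Ccne1, stood at 1.63 and 2.24, and the monocyte-like class at 1.66 and 0.792. The order of these 3 and cluster 9 differed between A and B and is not set. Neutrophil-like cells of A and B, 33 and 19 in number, held 0 Socs2 UMIs, which allows up to 10.7 and 22.8 CPM (3 UMIs).

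The difference between classes was not used to choose Socs2 and was tested within the enhancer-deleted libraries, on UMIs summed per library and class, over the 8 classes with at least 50 cells in each. HSPC-like cells stood above the mean of the other 7 classes by 3.96 on the log2 scale (SE 0.13, edgeR adjusted p = 2.1e-42), higher in both libraries. In this contrast 52.5% of genes were called, since such genes formed the classes. Cluster 4 was also above the others (1.73, SE 0.29, edgeR adjusted p = 2.3e-06), while the values of cluster 16 (1.05, SE 0.47, adjusted p = 0.064) and cluster 12 (0.47, SE 0.35, adjusted p = 0.34) did not pass. Monocyte-like cells were below (-2.51, SE 0.39, adjusted p = 7.9e-08), as were clusters 10 (-1.88, adjusted p = 0.00032), 5 (-1.82, adjusted p = 0.0027) and 9 (-0.997, adjusted p = 0.034). Cluster 9 did not pass with DESeq2 (adjusted p = 0.12). With 1 library left out, class values are differences of log2 CPM with a small count added, a measure unlike the fitted one. Without library B this value was -1.82 for monocyte-like cells and -0.40 for cluster 9. A difference among the classes of any kind was called for Socs2 (edgeR adjusted p = 3.7e-41) and for 93.7% of genes. Background called shares were 22.8% for cluster 4, 42% for 16, 30.8% for 12, 37% for 9, 64.2% for 5, 49.1% for 10 and 52.3% for monocyte-like cells.

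The wild-type libraries held their few Socs2 UMIs elsewhere in part. HSPC-like cells held 34 of 77 UMIs in F and 28 of 53 in I, at 5.15 CPM (exact 95% interval 3.56 to 7.19) and 3.85 (2.56 to 5.56). Cluster 15, led by Car1, Gm15915, Ms4a2 and the erythroid regulator Gata1, held 21 and 15 UMIs, at 6.64 (4.11 to 10.2) and 7.97 (4.46 to 13.1) CPM. Erythroid-like cells, led by globin genes, held 8 and 3 UMIs, at 14.2 (6.15 to 28.1) and 7.71 (1.59 to 22.5) CPM. These 3 groups together held most wild-type Socs2 UMIs, and their intervals overlapped. Cluster 15 and the erythroid-like class were nearly empty in the enhancer-deleted libraries, with 3 and 1 cells of cluster 15 and 3 erythroid-like cells each in A and B.

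Wild-type neutrophil-like cells held few Socs2 UMIs, 3 in 861 cells of F (0.2802 CPM) and 0 UMIs in 349 cells of I, which allows up to 0.531 CPM. Monocyte-like cells held 2 UMIs in F and 1 in I (0.305 and 0.148 CPM). Classes with under 50 cells in F or I were not tested, among them the erythroid-like class (50 and 37 cells) and clusters 4 and 16. Within the wild-type libraries, the HSPC-like class and cluster 15 stood above the mean of the other classes tested (edgeR adjusted p = 3.5e-05 and 2.4e-05). Background called shares were 50.7% and 47.1%, and 95.3% for a difference among any classes. For the classes whose values did not pass they were 50.2% (cluster 10), 36.9% (12), 24.7% (14), 66.3% (5), 41% (9), 53.7% (monocyte-like) and 68.7% (neutrophil-like). The size of these differences rests on classes with 0 to 3 UMIs: for HSPC-like cells it was 3.62 on the log2 scale. As a difference of log2 CPM with a small count added, it was 2.08 without library F and 2.50 without library I. Since that measure is unlike the fitted one, the lower values are not read as an effect of the library left out.

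**Figure D2:**
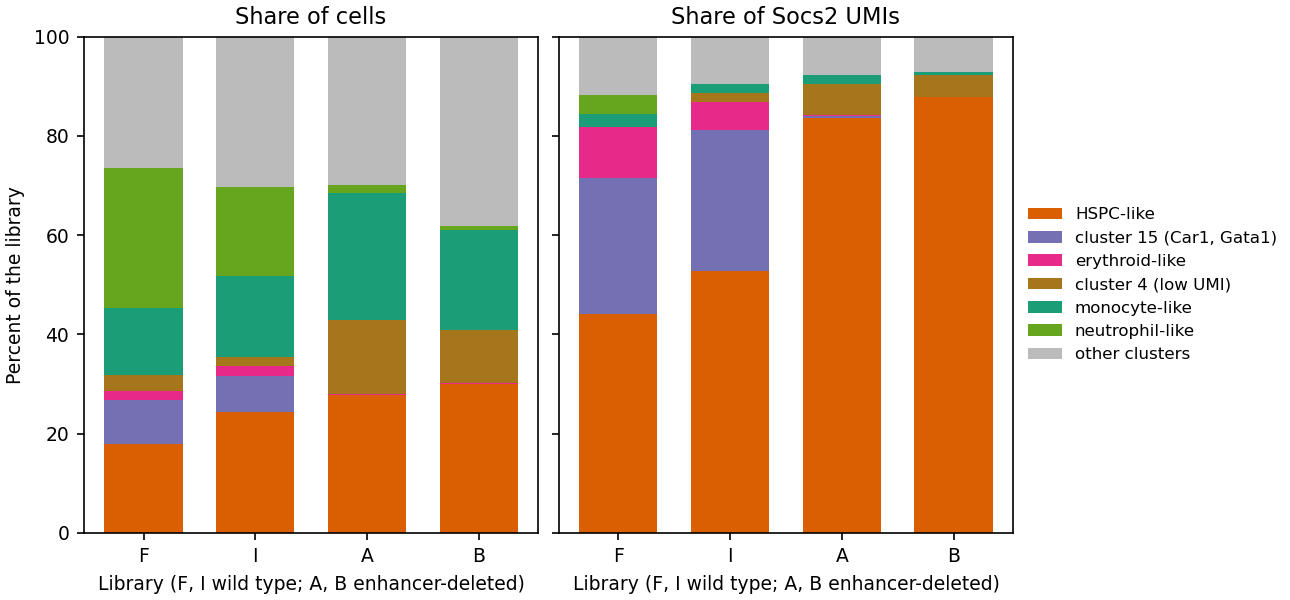
Share of cells (left) and of Socs2 UMIs (right) by cell class, in percent of each library, with bars for WT libraries F and I and MT libraries A and B. HSPC-like cells held 44.2% and 52.8% of Socs2 UMIs in the WT pair and 83.5% and 87.9% in the MT pair, while cluster 15 held 27.3% and 28.3% in F and I.

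Between genotypes, HSPC-like cells stood at 5.15 and 3.85 CPM in the WT pair and at 67.0 and 69.8 in the MT pair. The means were 4.496 ± 0.920 and 68.4 ± 1.97 CPM (SD, n = 2 each), and the fitted log2 fold change was 3.88. The 5 other classes with at least 50 cells in every library (clusters 5, 9, 10, 12 and monocyte-like cells), summed, stood at 0.277 and 0.197 CPM in the WT pair and at 3.18 and 2.52 in the MT pair. They rest on 4 and 3 wild-type UMIs. The ratio of means was 15.2 in HSPC-like cells and 12.03 in the summed classes. The difference between these genotype effects was 0.37 on the log2 scale (95% interval -1.23 to 1.98, edgeR adjusted p = 0.84), so the interval includes differences of either sign. Set against the mean of the classes instead of their sum, it was 0.16 (adjusted p = 0.88), and it turned negative without library F (-0.54), I (-0.28) or B (-0.07). The share of genes called was 3.9% for this contrast. It was 0.975% for cluster 10, 0.139% for 12, 0.613% for 5, 0% for 9 and 19% for monocyte-like cells, in none of which Socs2 was called, and 13.7% for any class.

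Levels were also recomputed with class levels of 1 genotype and class shares of the other. Wild-type class levels gave 1.76 CPM with wild-type class shares and 1.81 with enhancer-deleted class shares. Enhancer-deleted class levels gave 18.9 CPM with wild-type class shares and 23.6 with their own. The value of 18.9 CPM uses enhancer-deleted levels of classes with at most 33 cells per library, such as cluster 15, whose level there rests on 2 UMIs in 4 cells. The part of class composition in the genotype difference was not tested. Within a class, cells with more transcript each and a larger fraction of transcribing cells cannot be told apart by a mean.

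Counts per cell give part of that picture. After thinning, a Socs2 UMI was found in 118 of 536 HSPC-like cells of A (22.0%, exact 95% interval 18.6 to 25.8) and 165 of 726 of B (22.7%, 19.7 to 26.0). It was found in 12 of 517 such cells of F (2.32%, 1.205 to 4.02) and 9 of 460 of I (1.96%, 0.898 to 3.68). In monocyte-like cells the thinned share was 3 of 496 in A (0.605%) and 3 of 472 in B (0.636%), at median depths of 7178 and 6877 UMIs, close to the 7963 and 7085 of HSPC-like cells. No class here is known to lack Socs2, so the monocyte-like share is given in place of a background.

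**Figure D3:**
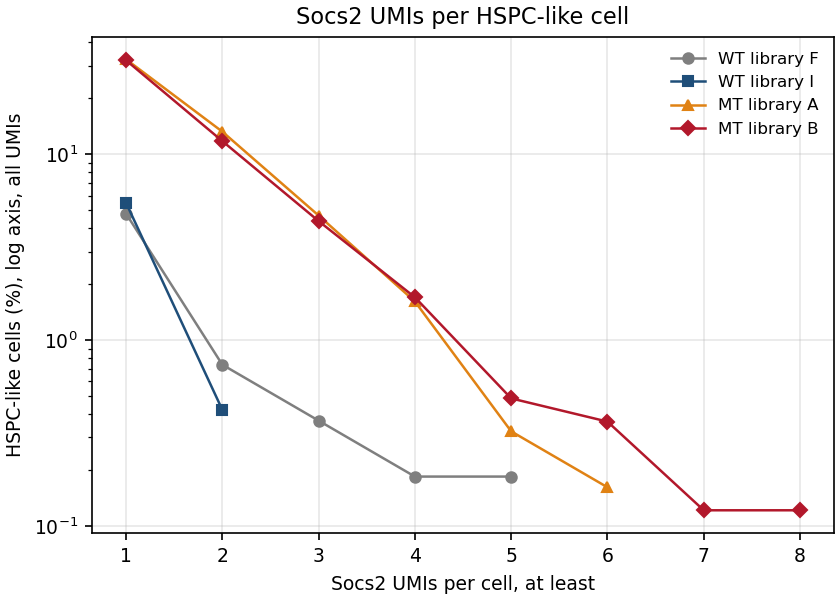
Percent of HSPC-like cells (vertical axis, logarithmic) with at least the number of Socs2 UMIs on the horizontal axis, for each library, without thinning. At least 2 UMIs were found in 82 of 619 cells of A and 97 of 823 of B, against 4 of 542 in F and 2 of 474 in I.

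Without thinning, at least 3 Socs2 UMIs were held by 29 HSPC-like cells of A and 36 of B, and the highest cells held 6 and 8. In F and I the highest held 5 and 2. After thinning, the variance of Socs2 counts over HSPC-like cells was 1.45 times the mean in A and 1.35 times in B. The panel genes within 1.5-fold of its mean had a median ratio of 1.02 (1316 genes) and 1.03 (1339 genes), and 8 and 11 of them had a higher ratio than Socs2. A Poisson count of the same mean would leave 73.4% and 73.6% of cells without a UMI, and 78.0% and 77.3% had none. The transcript was thus spread over HSPC-like cells less evenly than most genes of like abundance, in both libraries.

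Within HSPC-like cells, 39 of 3569 genes were called between genotypes (1.09%), 7 higher (0.196%) and 32 lower (0.897%) with the deletion. Socs2 is 1 of the 7, and nothing is read from its call, since this difference chose it. The count fell to 4 without F, 4 without I and 12 without B and was 72 without A. The other 6 genes called higher were Cox4i2, a cytochrome oxidase subunit, Hbb-bt, an adult beta globin, Cd24a, a surface glycoprotein, Gm26917, Csrp2 and Dynll2. They were named after their values were seen, and their log2 fold changes ran from 0.43 to 1.05. Hbb-bt did not stand for its list: of 13 erythroid markers tested, it alone was called higher, Gata1 was called lower (-3.19), and 9 stood below 0. Gata2 was among the genes called lower, at 33.0 and 29.8 CPM in the WT pair and 14.4 and 12.8 in the MT pair (log2 fold change -1.26, edgeR adjusted p = 0.031).

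Genes whose levels followed Socs2 over the MT clusters were ranked by Pearson r of log2(CPM + 1) over 12 clusters of at least 50 cells, in A and B separately, among 3527 genes. The points share libraries and depth, and r is a description. Among the 10 most alike were Mycn, a MYC family factor (r = 0.972 in A and 0.966 in B), Lat, a signalling adaptor of T cells and megakaryocytes, Serpina3g, a serine protease inhibitor, Dok2, an adaptor below tyrosine kinases, Msi2, an RNA binding protein of stem cells, Gm5111, Slc22a3, an organic cation transporter, Hbb-bt and Adgrl4, an adhesion receptor (r = 0.975 and 0.912). Mycn and Adgrl4 belong to the HSPC marker list that named the clusters. The levels of these genes in HSPC-like cells were far less different between genotypes than that of Socs2. Since Socs2 was chosen by its genotype difference, nothing is read from this. Mycn stood at 43.0 and 37.5 CPM in the WT pair and 46.0 and 58.2 in the MT pair (log2 fold change 0.33, edgeR adjusted p = 0.35). Serpina3g stood at 24.7 and 19.9 in the WT pair and 48.1 and 41.9 in the MT pair (0.96, adjusted p = 0.056). Of these genes, only Hbb-bt was called within HSPC-like cells, at 137 and 117 CPM in the WT pair and 251 and 249 in the MT pair (0.93, adjusted p = 0.016). Over all cells Hbb-bt was instead lower in the enhancer-deleted libraries (-2.03, adjusted p = 0.0073), Serpina3g was higher (1.24, adjusted p = 0.031), and the other 7 named here were not called. Serpina3g was not called without A or without B (adjusted p = 0.20 and 0.25), and Hbb-bt was not called without A (0.055). With equal cells of each class neither was called (adjusted p = 0.21 and 0.34), and Hbb-bt then stood at 0.42.

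**Figure D4:**
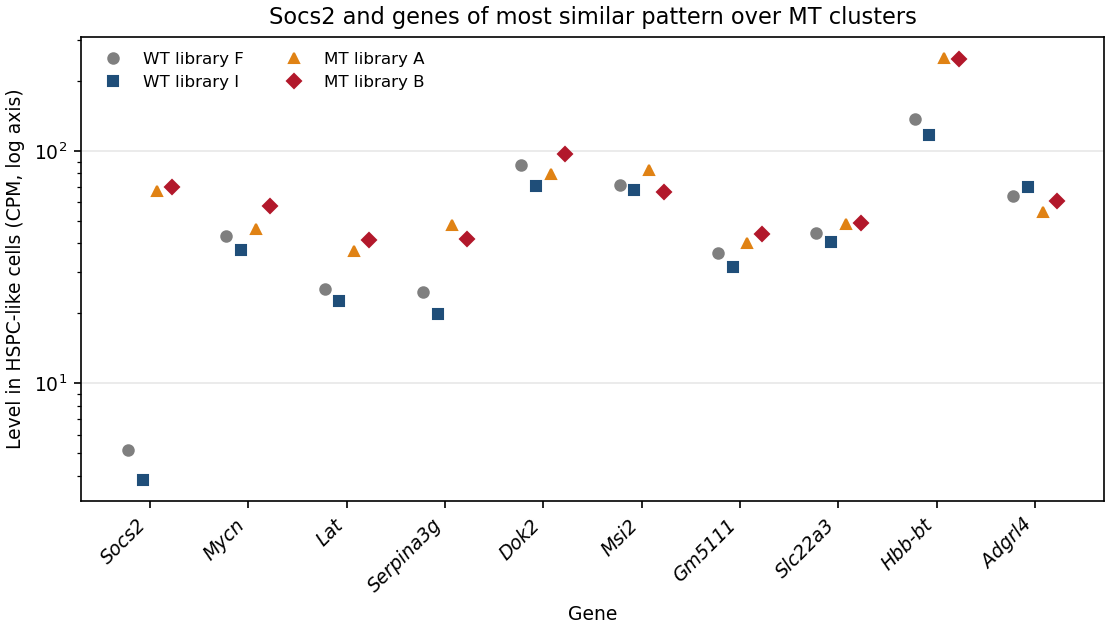
Level in HSPC-like cells (CPM, logarithmic axis) of Socs2 and of the genes named above for a like pattern over MT clusters, for WT libraries F and I and MT libraries A and B. Socs2, which was chosen by its genotype difference, stood at 3.85 and 5.15 CPM in the WT libraries and 67.0 and 69.8 in the MT libraries. For the other genes the points of the 4 libraries lie closer together.

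Enhancer-deleted cells with and without a Socs2 UMI were then compared in thinned data, summed per library, 135 against 1702 cells of A and 191 against 2097 of B. Of 3576 genes, 698 were called (19.5%), 326 higher (9.12%) and 372 lower (10.4%) with Socs2 (edgeR, library as a factor). DESeq2 called 174 of the same genes, 63 higher and 111 lower. Among the 10 largest rises, in genes of at least 20 CPM, were Serpina3g, Hlf, Gm5111, Ltb, Mycn, Ctla2a, Car2, Slc22a3 and Adgrl4. Hlf, a transcription factor of stem cells, stood at 66.5 CPM in detected and 11.8 in undetected cells of A, and at 55.4 and 10.3 in B (log2 fold change 2.46, SE 0.25, adjusted p = 1.5e-21). Ctla2a, a protease inhibitor, stood at 298 and 89.5 in A and 378 and 96.2 in B (1.89, SE 0.09, adjusted p = 6.1e-88). Of 13 HSPC markers measured, 12 were higher and none lower, with a median log2 fold change of 1.39 against 0.00 over all genes tested. Gata2 was higher too, at 18.7 and 7.84 CPM in A and 18.1 and 6.69 in B (1.36, adjusted p = 0.012).

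Marker genes of monocytes and neutrophils were lower in Socs2-detected cells. Elane, neutrophil elastase, stood at 42.6 CPM in detected and 641 in undetected cells of A and at 24.1 and 474 in B (log2 fold change -4.09, SE 0.14, edgeR adjusted p = 2e-169). S100a8, a calprotectin subunit, stood at 8.52 and 271 in A and 9.64 and 114 in B (-4.28, SE 0.24). Ly6c2, a monocyte surface protein, stood at 1.70 and 88.6 in A and at 0 and 45.2 in B. All 16 monocyte and macrophage markers were lower, as were 9 of 11 neutrophil markers tested, and none of either list was higher. The other genes named for large falls were Trem3, Trem2, S100a9, Stfa1, BC100530, Hba-a1 and Hba-a2. Of 12 erythroid markers tested, 3 were called higher and 3 lower, with Hbb-bs among those called, and 8 stood below 0. Over all genes 9.12% were called higher and 10.4% lower. For the alpha globins the direction depended on thinning. A and B held 3 erythroid-like cells each, and without thinning a Socs2 UMI was found in 1 of those of A and 0 of B. The part of these few cells in the alpha globin values was not tested. Hba-a1 stood at 0 and 71.8 CPM in A and 2.41 and 91.4 in B as thinned, but its log2 fold change was 1.14 without thinning, and that of Hba-a2 was 1.29. HSPC-like cells made up 118 of 135 detected cells in A and 165 of 191 in B.

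The same comparison was made with the class held fixed. Within HSPC-like cells, 118 detected against 418 undetected cells of A and 165 against 561 of B, 41 of 3497 genes were called (1.17%), 20 higher (0.572%) and 21 lower (0.601%). With another random draw of the thinning 21 were called, 20 of them shared, and without thinning 95. The standard errors come mostly from counting error, since each library gives 1 pair of sums.

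The 5 largest rises in Socs2-detected HSPC-like cells were in Serpina3g, Hlf, Gm5111, Hbb-bt and Car2. Serpina3g stood at 79.9 CPM in detected and 39.1 in undetected cells of A and at 75.3 and 34.9 in B (log2 fold change 1.08, SE 0.19, edgeR adjusted p = 8.9e-06). Hlf stood at 74.1 and 39.1 in A and 59.97 and 26.2 in B (1.06, SE 0.21, adjusted p = 0.00011). By cells, an Hlf UMI was found in 26.3% of detected and 14.4% of undetected cells of A, and in 21.8% and 9.63% in B. Gm5111 (0.90) and Car2, a carbonic anhydrase (0.67), rose as well, but Gm5111 was not called without thinning and Car2 not with another draw (adjusted p = 0.12 and 0.070). Hbb-bt stood at 384 and 236 in A and 386 and 208 in B (0.81, SE 0.09, adjusted p = 2.9e-15). Of 9 erythroid markers tested, Hbb-bt and Car2 were the ones called, against 1.17% of all genes, and 3 of the 9 stood below 0. Alpha globin Hba-a1 stood at 0 in both groups of A and at 2.79 and 4.51 in B. The part of erythroid cells in the Hbb-bt difference was not tested.

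The 5 largest falls were in Clec12a, Anxa3, Ctsg, Milr1 and Ccl9. Ctsg, cathepsin G of neutrophil granules, stood at 85.8 CPM in detected and 214 in undetected cells of A and at 79.5 and 203 in B (log2 fold change -1.33, SE 0.14, edgeR adjusted p = 6.4e-17). Anxa3, an annexin of granulocytes, stood at 21.4 and 63.3 in A and 26.5 and 63.2 in B (-1.37, adjusted p = 6.3e-06). Ccl9, a chemokine, stood at 89.7 and 161 in A and 89.2 and 152 in B (-0.79, adjusted p = 1.4e-05). The inhibitory receptors Clec12a (-1.63, adjusted p = 0.0047) and Milr1 (-1.17, adjusted p = 0.0093) were lower, but with another draw Clec12a, Milr1 and Anxa3 were not called (adjusted p = 0.30, 0.37 and 0.070). Of 6 neutrophil markers tested, Prtn3, Ctsg and Mpo were lower and none higher. Of 6 monocyte and macrophage markers, Irf8, a factor of monocyte and dendritic differentiation, was lower (-0.71, adjusted p = 0.021).

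**Figure D5:**
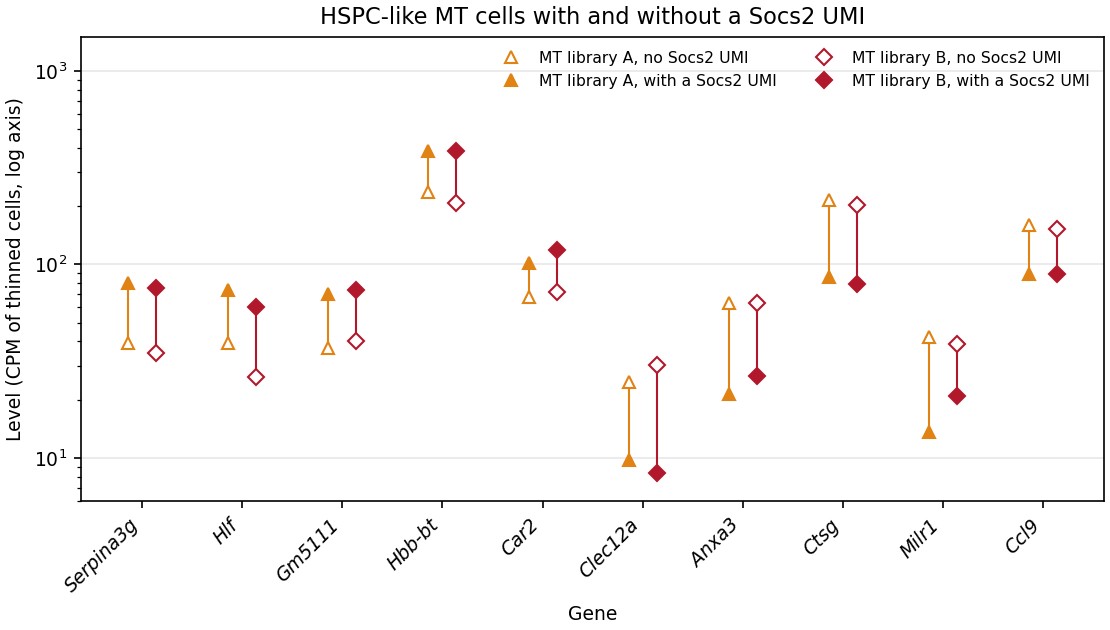
Level (CPM of thinned cells, logarithmic axis) of the 5 genes with the largest rise and the 5 with the largest fall, in HSPC-like cells of MT libraries A and B with (filled) and without (open) a Socs2 UMI. The first 5 genes are higher and the last 5 lower with a Socs2 UMI in both libraries, for example Ctsg at 85.8 against 214 CPM in A.

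Of 13 HSPC markers measured, Hlf alone was called, against 1.17% of all genes, and the median log2 fold change was 0.23. Gata2 stood at 21.4 and 14.9 CPM in A and 16.7 and 12.7 in B (0.46, edgeR adjusted p = 0.81), and a Gata2 UMI was found in 11 of 118 detected and 27 of 418 undetected cells of A and in 11 of 165 and 30 of 561 of B. None of 18 S phase and none of 18 G2/M genes was called. At the share of 1.17% called over all genes, lists of this size can hold no call, so nothing is read from this. Their medians were 0.03 and -0.12, and 7 S phase and 14 G2/M genes stood below 0.

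The pathway around SOCS2 was only partly in the panel, in which Socs2 was the only family member. Its ligase partners Rnf7, Tceb1 (elongin C) and Tceb2 (elongin B) were not called between genotypes over all cells (log2 fold changes -0.04, -0.01 and -0.01, edgeR adjusted p = 0.73, 0.95 and 0.96), and their signs changed with scaling by library totals. None of the 3 was called in HSPC-like cells or by Socs2 detection. Of 10 cytokine receptor genes, 1 was higher and 3 lower over all cells with the deletion, against the 2.76% and 6.1% of all genes. Csf1r, which binds a macrophage growth factor, was higher (0.61, adjusted p = 0.024). Csf1r is also on the monocyte marker list, and monocyte-like cells were 14.9% of WT and 23.0% of MT cells (means of 2 libraries). The part of class composition in its rise was not tested, and Csf1r was not followed in the other settings below. Ifngr1, an interferon gamma receptor chain, stood at 101 and 100.1 CPM in the WT pair and at 54.9 and 59.1 in the MT pair (-0.87, adjusted p = 0.0034), and Igf1r (-0.88, adjusted p = 0.018) and Csf2ra (-0.73, adjusted p = 0.019) were lower. Igf1r and Csf2ra were each not called without A or without B (adjusted p = 0.071 to 0.11). Within HSPC-like cells none of the 10 was called, and the median was -0.26 against -0.02 over all genes. With equal cells of each class Ifngr1, Igf1r and Csf2ra were not called (adjusted p = 0.57, 0.79 and 0.98).

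Of 4 JAK-STAT genes in the panel, Jak1, Ptpn6, Ptpn11 and Ptprc, none was called between genotypes over all cells or in HSPC-like cells. Of 9 genes listed as STAT5 targets, Ccnd1 (0.77, edgeR adjusted p = 0.0098) and Ccnd2 (0.61, adjusted p = 0.012), both D cyclins, and Irf8 (0.75, adjusted p = 0.0098) were higher and Tfrc, the transferrin receptor, was lower (-0.72, adjusted p = 0.031) over all cells, against 2.76% up and 6.1% down over all genes. Irf8 was not called without A (adjusted p = 0.059) and Ccnd2 not without B (0.077), and with equal cells of each class Ccnd1, Ccnd2 and Irf8 were not called (0.63, 0.24 and 0.93). Tfrc was not followed in these settings. None of the 9 was called between genotypes in HSPC-like cells. In Socs2-detected HSPC-like cells only Irf8 was called, and Pim1, a kinase induced by STAT5, stood at 0.33 (adjusted p = 0.36). Over all MT cells Pim1 (0.90), Id1 (0.36) and Ccnd2 (0.40) were higher with Socs2 detection, and Irf8 was lower (-1.79, adjusted p = 2.5e-42), alongside the class difference above.

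Of the 11 other protein-coding genes within 1 megabase of Socs2, 3 were in the panel and none was called between genotypes. Mrpl42, a mitochondrial ribosomal protein 63.6 kb away, stood at 432 and 449 CPM in the WT pair and 522 and 571 in the MT pair (log2 fold change 0.26, edgeR adjusted p = 0.061). Ube2n, a ubiquitin conjugating enzyme 98.0 kb away, stood at 0.06 (adjusted p = 0.62) and Cep83, a centrosomal protein 595 kb away, at -0.03 (adjusted p = 0.84). Within HSPC-like cells none of the 3 was called. On a wider list of 8 measured genes of this stretch of chromosome 10, Lta4h and Gm15915 were lower over all cells (-1.15 and -3.98, adjusted p = 0.0034 and 0.012) and none higher, against 6.1% of all genes lower, and without A or B Gm15915 was not called (adjusted p = 0.092 and 0.078). Lta4h was not called with equal cells of each class (adjusted p = 0.61).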

How the data were processed

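The authors deposited 1 table of UMI counts, 3624 genes by 9960 cells, with a gene list and a list naming the library of each cell. Reads were processed with Cell Ranger 2.0.2 and Seurat 2.3.4 on mm10, per the submitters' processing notes; how the genes and the 4980 cells per genotype were chosen is not given in the sources used here. Cells were clustered without Socs2 (scanpy 1.11.5, 1000 variable genes, 30 components, 15 neighbours, Leiden resolution 1.0, 18 clusters). A cluster was named where at least 3 markers of a list were in 10% of its cells and 2-fold above the rest, and led its top genes, a last condition set after seeing the clusters. No doublet caller was run. UMIs summed per library and class or detection state were tested with edgeR 4.0.16 (quasi-likelihood, Benjamini-Hochberg adjusted p under 0.05), with DESeq2 1.42.0 as an alternative. Classes needed 50 cells in each library. Named genes were the 10 (within HSPC-like cells 5) largest rises and falls with Socs2 detection that passed in both libraries' direction with at least 20 CPM in the higher group, the 10 most alike over clusters, up to 3 per pathway list, and panel genes within 1 megabase. Fits were also run on simulated counts with known changes, drawn with the same relative spread for all genes and no other class differences. That setting is simpler than these data, and no result above rests on it. The members and lists were chosen with earlier results of these data known. A gene that these rules chose is not reported here.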

Additional observations from a re-analysis of the deposited data

How the results depend on the processing

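No paired analysis was possible because the library letters of the deposited counts cannot be tied to the sample numbers in the labels. With a term for sex from Xist, 480 genes were called between genotypes, 318 of them shared with the 321 below, and Socs2 stood at 3.70. Over all cells, 321 genes were called between genotypes, 734 with DESeq2, 5 with equal cells of each class and 66 to 291 with 1 library left out; within HSPC-like cells the count was 39, and 4 to 72. With Socs2 detection 698 were called, 174 with DESeq2; within HSPC-like cells 41, 95 without thinning and 21 with another draw. The Socs2 genotype log2 difference was 3.70 and 4.07 with equal cells of each class. With 1 library left out, the HSPC-like class difference was 3.48 to 3.82 in MT and 2.08 to 2.50 in WT libraries. These class values are differences of log2 CPM with a small count added, not fitted coefficients. The class by genotype term, fitted as before, was -0.54 to 0.47. The mean detected share was 1.01% (WT) and 7.85% (MT), 2.42% and 11.5% without thinning and 1.49% and 11.15% thinned to the MT median. The cause of these changes was not tested.

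Some values changed sign. Cluster 12 stood at 0.47 in MT libraries and at -0.054 to 0.62 with 1 left out. In WT libraries cluster 12 stood at 0.06, at -0.018 with DESeq2 and at -1.50 to 0.55 with 1 left out. Cluster 14 there stood at 0.76, and at -0.24 to 0.34 with 1 left out. The left-out values of both clusters are differences of log2 CPM with a small count added, unlike the fitted ones. Hba-a1 and Hba-a2, lower as thinned, turned: Hba-a1 to 1.14 without thinning and 3.70 at the MT median, Hba-a2 to 1.29 and 3.97. With equal cells of each class Hbb-bt (-2.03 before) was 0.42, Adgrl4 -0.22, Csf2ra (-0.73 before) 0.023, Ptprc -0.13 and Rnf7 0.0035. With library totals Cep83 was 0.026, Rnf7 0.0083, Tceb1 0.036 and Tceb2 0.031. With equal cells per library Cep83 was 0.0054 and Tceb1 0.00087. With 1 library left out Tceb1 was -0.093 to 0.060, Tceb2 -0.23 to 0.16, Jak1 -0.045 to 0.18 and Ier2 -0.057 to 0.088. Wild-type values rest on 130 Socs2 UMIs in all.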
